A study of Homo sapiens with 4 samples.

Results

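MITF, SOX10 and 8 further regulators of the neural crest and of melanocytes (SOX9, SOX5, PAX3, TFAP2A, TFAP2B, FOXD3, SNAI2 and NGFR) were followed in 2 human melanoma cell lines. The genes were taken by name, and every probe set that the platform's probe-gene table assigned to 1 of them was used, which gave 26 of 54613 probe sets and 10 of 19775 genes. No probe set named a member together with another gene. RNA came from A375 and SK-MEL-28, established lines in which BRAF carries an activating mutation, 48 h after transfection. The 4 groups were A375 with an siRNA for ZIC5, A375 with a negative control siRNA, SK-MEL-28 with the ZIC5 siRNA and SK-MEL-28 with the negative control siRNA, with 1 array each. ZIC5 is a zinc-finger transcription factor, and the labels do not give the sequence or number of the siRNAs, nor an untransfected culture.

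MITF is the basic helix-loop-helix leucine zipper factor that drives the pigment cell lineage. SOX10 and PAX3 switch it on in precursors from the neural crest, together with CREB family factors and LEF1 acting at the promoter of its melanocyte form. In melanoma, cells with high MITF tend to express pigment genes, whereas cells with low MITF tend to express invasion genes such as AXL, and the neurotrophin receptor NGFR marks a state that resembles the neural crest.

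The promoter windows below are those of MITF and of pigment genes that are known MITF targets. They are the 250 bases before a transcription start in RefSeq (GRCh38.p14, plus strand), written 5′ to 3′. The first is the most downstream of 3 MITF starts in the table, that of the melanocyte form, at chr3:69936342-69936591. Capitals mark a LEF1 and TCF site (CTTTGAT, with its reverse complement ATCAAAG also searched) at -204 and a cAMP response element (TGACGTCA) at -152, counted back from the start.
MITF: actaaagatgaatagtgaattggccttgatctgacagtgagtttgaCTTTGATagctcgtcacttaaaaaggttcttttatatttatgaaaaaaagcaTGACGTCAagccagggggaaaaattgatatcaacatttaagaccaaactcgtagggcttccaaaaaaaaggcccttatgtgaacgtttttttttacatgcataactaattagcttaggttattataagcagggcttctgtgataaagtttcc
The next 3 belong to pigment genes that are textbook targets of MITF: TYR (chr11:89177625-89177874), the rate-limiting enzyme of melanin synthesis, TYRP1 (chr9:12693135-12693384), a melanin enzyme, and MLANA (chr9:5890639-5890888), a melanosome protein. Capitals mark CATGTG, the core that MITF binds, or its reverse complement CACATG.
TYR: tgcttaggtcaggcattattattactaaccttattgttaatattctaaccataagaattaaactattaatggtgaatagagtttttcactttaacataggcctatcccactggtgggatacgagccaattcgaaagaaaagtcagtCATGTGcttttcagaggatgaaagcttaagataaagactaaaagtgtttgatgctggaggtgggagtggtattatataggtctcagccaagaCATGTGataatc
TYRP1: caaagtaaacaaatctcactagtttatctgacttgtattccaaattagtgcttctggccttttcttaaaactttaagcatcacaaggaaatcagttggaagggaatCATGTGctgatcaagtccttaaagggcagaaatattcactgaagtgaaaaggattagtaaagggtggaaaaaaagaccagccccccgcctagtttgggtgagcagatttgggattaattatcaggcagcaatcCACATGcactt
MLANA: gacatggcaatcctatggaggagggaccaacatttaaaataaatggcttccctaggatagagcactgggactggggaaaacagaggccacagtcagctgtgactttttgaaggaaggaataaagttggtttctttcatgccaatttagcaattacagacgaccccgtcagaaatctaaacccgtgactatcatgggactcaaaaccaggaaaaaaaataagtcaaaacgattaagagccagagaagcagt

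The TYR window holds the core at -104 and -12, the TYRP1 window at -144 and -11, and the MLANA window does not hold these letters. Over all 35116 promoter windows in the table, 9.42% held the core on either strand, 1.65% the cAMP response element and 2.26% the LEF1 and TCF site. Promoter windows were searched for 6 of the 10 members, 9 windows in all, and the core was in 0 of them. Windows on the chromosome that carries SNAI2 were left out for members and list genes, but not for the share over all windows. The cAMP response element was in 2 of the 9, those of FOXD3 and of the melanocyte form of MITF, and the CACGTG E-box, found in 6.34% of all windows, was in that of FOXD3. These matches describe letters in the sequence and do not show binding.

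A gene was analysed where its log2 intensity averaged 5 or more (intensity 32) over the 4 arrays, which 13794 did, all 10 members among them. Each was represented by its probe set with the highest mean. Array medians lay between 38.4 and 39.4. The ZIC5 probe set read 14.1 in A375 with ZIC5 siRNA and 16.8 with control siRNA, and 15.5 and 21.4 in SK-MEL-28, all under 32, so the knockdown could not be read from these arrays. Of 5 melanocyte markers with a probe set of their own (PMEL, MLANA, TYR, TYRP1 and S100B), 0 were under 32 in SK-MEL-28. Their summed intensity was 421 in A375 with ZIC5 siRNA and 500 in A375 with control siRNA, against 36138 and 38182 in SK-MEL-28. In A375 with ZIC5 siRNA 3 of the 5 were under 32, and with control siRNA 2. Among markers of other cells, the leukocyte marker PTPRC and the endothelial marker CDH5 were at or below 10.3 on every array, the fibroblast marker PDGFRA was at or below 18.9, and KRT5 lay between 34.8 and 41.4. Other markers of these cells read higher. The endothelial marker PECAM1 lay between 56.9 and 88.3 and the fibroblast marker COL1A1 between 152 and 190. KRT14 read 320 and 358 in A375 with ZIC5 and control siRNA, against 42.5 and 32.1 in SK-MEL-28. The 4 endothelial markers summed to 169 and 188 in A375, against 154 and 147 in SK-MEL-28. Other marker sums differed between the lines. The 5 keratinocyte markers summed to 3746 and 3425 in A375 with ZIC5 and control siRNA, against 1571 and 1658 in SK-MEL-28, most of it KRT10, and the 4 leukocyte markers with a probe set summed to 275 and 528, against 109 and 122, most of it LYZ in A375. The 5 fibroblast markers summed to 257 and 444 in A375, against 769 and 1129 in SK-MEL-28, most of it LUM in SK-MEL-28, and MBP and GFAP, the 2 Schwann or glial markers with a probe set, to 63.2 and 73.0, against 2491 and 2839, nearly all of it MBP. Their part in the line differences was not tested. In RNA from whole cultures, fewer cells of a type and less RNA per cell cannot be told apart.

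The 2 lines held different sets of these regulators. A375 had more TFAP2B, SOX5 and NGFR transcript than SK-MEL-28, and less MITF, PAX3, TFAP2A and SNAI2. SOX10 was well above the level minimum in both lines. A limma fit with terms for the line and the siRNA, in which the 2 transfections of a line stand in for its replicates, called 7 of the 10 members at a Benjamini-Hochberg adjusted p under 0.05. That fit called 27.7% of all genes. It called 3 members as higher in A375, where 14.2% of all genes were, and 4 as lower in A375, where 13.4% were. TFAP2B and SOX9 averaged under the level minimum in SK-MEL-28 and entered the fit through A375 alone, so a higher A375 value was built into their entry. Of the 8 members at the minimum in each line, 2 were called as higher and 4 as lower. The median size of the line difference was 2.34 log2 units over the members and 0.42 over all genes. With control siRNA alone, 9 of 10 members differed by at least 2-fold, against 22.2% of all genes. After raising every intensity under 32 to 32 the count was 8, since SOX9 came to 0.95.

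**Figure D1:**
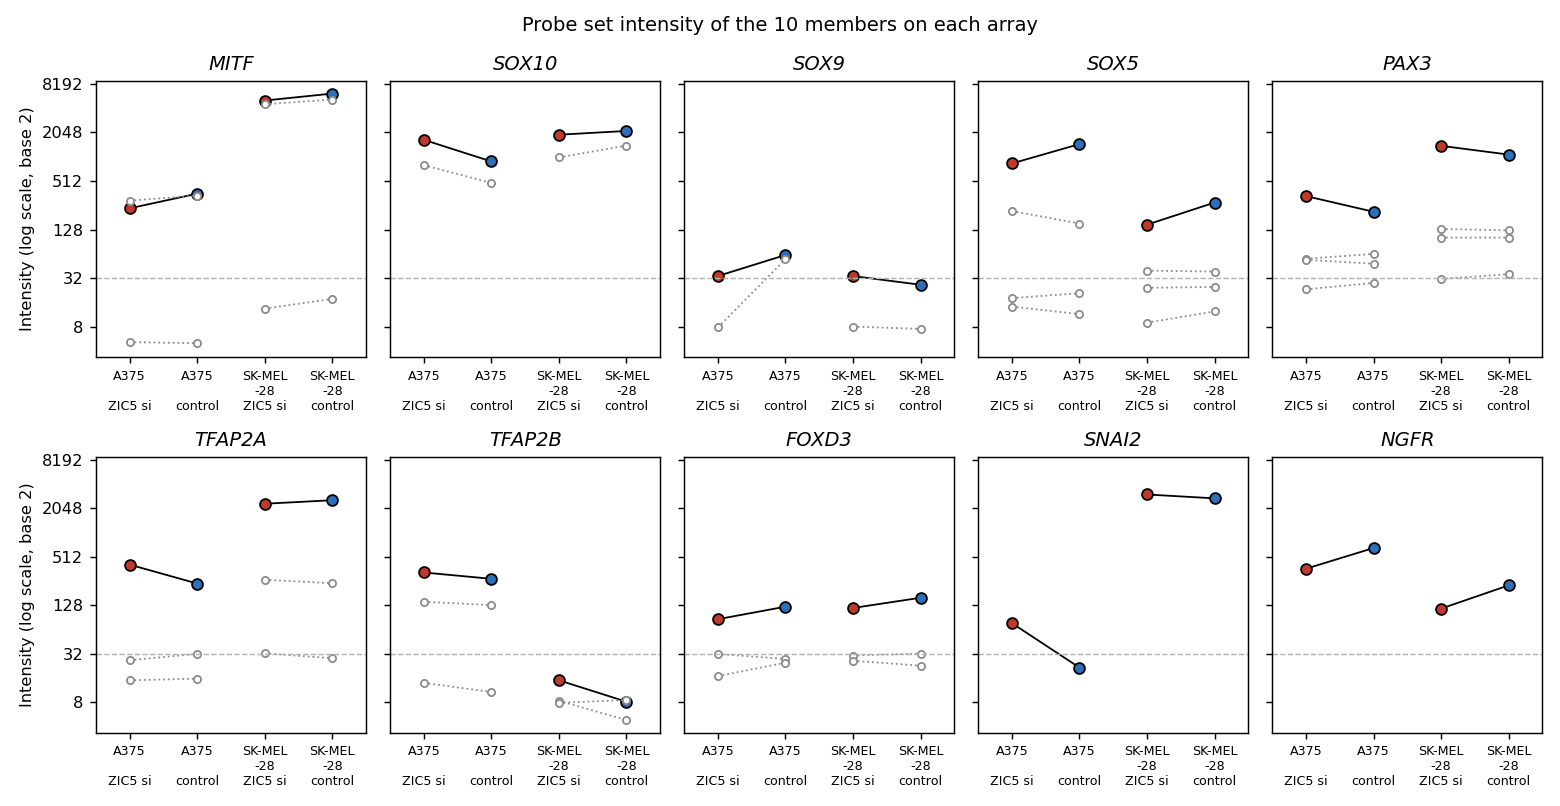
Intensity (vertical axis, logarithmic) of every probe set of each member on the 4 arrays. Filled circles joined by solid lines are the probe set with the highest mean (red, ZIC5 siRNA; blue, control siRNA), open circles are the other probe sets, and the dashed line is 32; MITF, TFAP2A and SNAI2 stand far higher in SK-MEL-28, and TFAP2B is under 32 there.

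MITF showed the gap between the lines on its main probe sets. Its intensity was 235 in A375 with ZIC5 siRNA and 357 in A375 with control siRNA, against 5089 and 6205 in SK-MEL-28. Both A375 arrays were far below both SK-MEL-28 arrays, a fitted difference of -4.28 log2 units (SE 0.16, limma adjusted p 0.00281), or 19.4-fold lower in A375. The other MITF probe set at the level minimum gave -3.96. The third, under the minimum on all 4 arrays, gave -1.60.

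PAX3, a paired-box factor that acts with SOX10 on the MITF promoter, had the same order. It read 333 in A375 with ZIC5 siRNA and 213 with control siRNA, against 1397 and 1088 in SK-MEL-28. The fitted difference was -2.21 (SE 0.18, limma adjusted p 0.0071), and all 4 of its probe sets were lower in A375, by sizes that ran from -0.39 to -2.21. With probe sets averaged the PAX3 difference was -1.17 and was still called. TFAP2A, the AP-2 alpha factor of neural crest and melanocytes, read 408 and 238 in A375 with ZIC5 and control siRNA, against 2321 and 2566 in SK-MEL-28. It was lower in A375 by -2.97 (SE 0.28, limma adjusted p 0.00918), and all 3 of its probe sets had that sign.

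SNAI2 (Slug), a zinc-finger transcriptional repressor that acts in neural crest migration, had the largest line difference of the members. Its 1 probe set read 76.9 in A375 with ZIC5 siRNA and 21.6 in A375 with control siRNA, against 3021 and 2707 in SK-MEL-28. The fitted difference was -6.13 (SE 0.46, limma adjusted p 0.0065). The A375 control value lies under 32, and raising every intensity under 32 to 32 gave -5.85.

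TFAP2B, the AP-2 beta relative of TFAP2A, ran the other way. It read 326 in A375 with ZIC5 siRNA and 273 with control siRNA, against 15.1 and 8.2 in SK-MEL-28. The difference was 4.75 (SE 0.22, limma adjusted p 0.00296), and all 3 of its probe sets were higher in A375. Both SK-MEL-28 values are under 32, so the size of the gap is not well measured. Raising every intensity under 32 to 32 gave 3.22.

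SOX5, a SOX factor of the D group that lacks an activation domain, was also higher in A375. It read 845 and 1468 in A375 with ZIC5 and control siRNA, against 147 and 277 in SK-MEL-28. The difference was 2.46 (SE 0.17, limma adjusted p 0.0056), and the other SOX5 probe set at the level minimum gave 2.21. Of the 2 under it, 1 had the same sign. NGFR, the p75 neurotrophin receptor, read 363 and 656 in A375, against 116 and 226 in SK-MEL-28. Its difference was 1.59 (SE 0.18, limma adjusted p 0.0122).

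SOX10, SOX9 and FOXD3 were not called between the lines. SOX10, the SOX factor of the E group that maintains melanocytes and Schwann cells, read 1660 in A375 with ZIC5 siRNA and 895 with control siRNA, against 1919 and 2135 in SK-MEL-28. Its line difference was -1.26 with control siRNA but -0.21 with ZIC5 siRNA, so the A375 array with ZIC5 siRNA lay close to both SK-MEL-28 arrays (fitted -0.73, SE 0.30, limma adjusted p 0.154). SOX9, the other factor of that group measured here as a member, read 34.0 and 62.0 in A375, against 34.0 and 26.5 in SK-MEL-28, near or under the level minimum on each array. FOXD3, a forkhead factor of early neural crest, read 86.1 and 123 in A375, against 119 and 159 in SK-MEL-28, with overlapping lines and a fitted difference of -0.41 (SE 0.17, limma adjusted p 0.157).

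**Figure D2:**
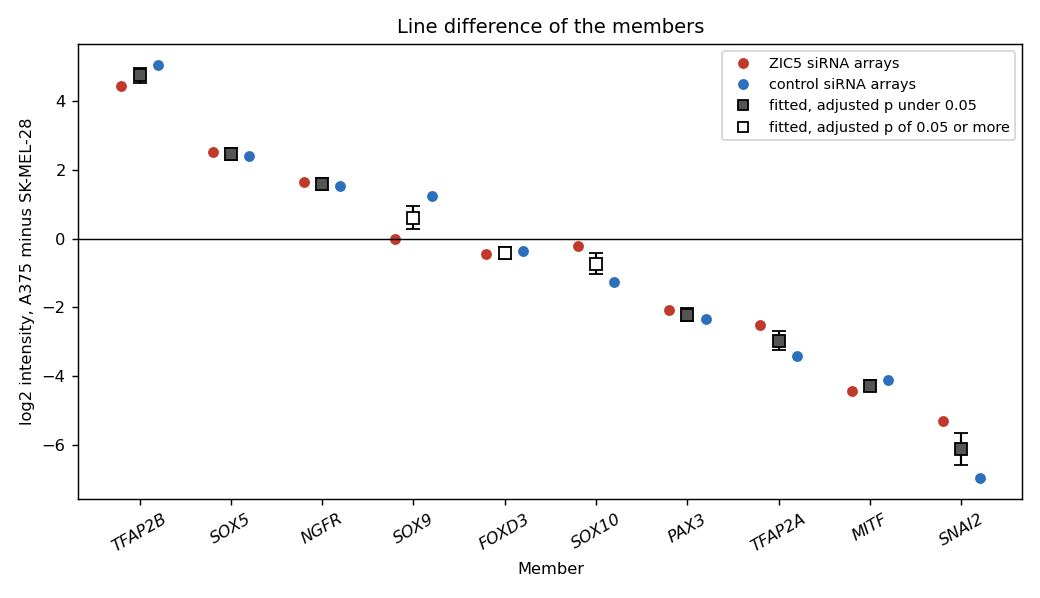
Line difference in log2 intensity (A375 minus SK-MEL-28) for each member. Squares with bars are the limma estimate and its SE, filled where the adjusted p is under 0.05; circles are the difference within the ZIC5 siRNA arrays (red) and within the control siRNA arrays (blue). TFAP2B, SOX5 and NGFR lie above 0, and PAX3, TFAP2A, MITF and SNAI2 below it. The circles lie furthest apart for SNAI2, where the red minus the blue value is 1.67. That value is -1.22 for SOX9, 1.05 for SOX10 and 0.92 for TFAP2A.

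Most of the genes that MITF is known to switch on were, like MITF, lower in A375. Of 19 analysed, 18 were called as lower in A375 and 0 as higher, against 13.4% and 14.2% of all genes. TYR, TYRP1, MLANA, GPR143 and TRPM1 averaged under the level minimum in A375 and entered through SK-MEL-28 alone, so their lower A375 value was built into their entry. Of the other 14, 13 were called as lower. Over all 19, the median line difference was -4.48, against 0.01 over all genes. MLANA read 17.0 in A375 with ZIC5 siRNA and 13.9 with control siRNA, against 17273 and 18212 in SK-MEL-28. PMEL, which builds the fibrils of the melanosome, read 35.9 and 32.4 in A375, against 10317 and 10484 in SK-MEL-28. TYRP1 read 8.1 and 7.5, against 1121 and 1226. These 3 genes were near or under 32 in A375, and with that floor of 32 their line differences were -9.11, -8.25 and -5.20. TYR, whose window carries the core at 2 places, read 26.7 and 33.5 in A375, against 1764 and 1373 in SK-MEL-28. The ion channel TRPM1 read 3.7 and 4.8 in A375, against 516 and 695 in SK-MEL-28, or -4.23 for the line after the same floor. The anti-apoptotic factor BCL2A1 was lower in A375 by -6.10 (SE 0.35). The member that was not called, OCA2, a melanosome transporter, read 661 in A375 with ZIC5 siRNA and 123 with control siRNA, against 1430 and 1166 in SK-MEL-28. Of the 19 genes, 14 had a promoter window in the table, and 9 of these held the core in at least 1 window, that is 10 of 23 windows or 43.5%, against 9.42% of all windows. The list was drawn from known MITF targets, so that share was not tested.

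Genes linked to SOX10 and to Schwann cells were called in both directions. Of 13 analysed, 7 were called as lower and 1 as higher, against 13.4% and 14.2% of all genes. MBP entered through SK-MEL-28 alone, so its call was built into its entry. The median line difference of -0.63 came to -1.17 with a level minimum of 7, -1.15 without the _x_at and _s_at probe sets (those open to cross-hybridisation) and -0.94 with probe sets averaged. The myelin gene MBP read 20.8 and 20.3 in A375, against 2444 and 2800 in SK-MEL-28, and S100B, a calcium-binding protein of melanocytes and Schwann cells, was lower in A375 by -4.07 (SE 0.14). The adhesion molecule NRCAM (-4.65), the fatty acid binding protein FABP7 (-1.71) and the gap junction protein GJB1 (-2.46) were also lower in A375. NES, an intermediate filament of neural progenitors, read 2241 and 2476 in A375, against 55.0 and 39.1 in SK-MEL-28, a difference of 5.67 (SE 0.24, limma adjusted p 0.00281). ERBB3, a neuregulin receptor, differed by 0.36 and was not called.

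The genes linked in melanoma to low MITF were called as higher in A375 in 7 of 16 cases and as lower in 1, against 14.2% and 13.4% of all genes, with a median line difference of 0.72. AXL, a receptor tyrosine kinase, read 2016 and 4773 in A375, against 38.9 and 56.4 in SK-MEL-28, a difference of 6.05 (SE 0.25). The matrix protein TGFBI was higher in A375 by 6.60, the ligand WNT5A by 4.91 and the matrix protein THBS1 by 4.07. WNT5A entered through A375 alone, so its call was built into its entry, and after the floor of 32 its difference was 4.28. The 1 gene called as lower was the matrix protein tenascin C (TNC), lower in A375 by -1.03, which was chosen after its values were seen. Some genes of the list that were not called also read lower in A375.

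Factors that act on MITF, and its relatives, gave 2 calls higher in A375 and 5 lower among 16 genes, against 14.2% and 13.4% of all genes. LEF1, for which the site is marked in the MITF window, read 625 and 804 in A375, against 5203 and 2300 in SK-MEL-28, a difference of -2.29 (limma adjusted p 0.0298). The zinc-finger factor ZEB2 (-2.82) and the POU factor POU3F2 (-2.08) were lower in A375, and the LEF1 relative TCF7L2 (1.89) was higher. CREB1, a factor of the cAMP response element, differed by 0.20 and was not called. Among 17 other neural crest factors, 2 were called as higher in A375, near the 14.2% of all genes, and 6 as lower, against 13.4%. DLX5 and RXRG, the retinoid X receptor gamma (-2.02), entered through SK-MEL-28 alone. MYC (-3.09), ID2 (-3.07) and ID3 (-2.22) were lower in A375, while the SNAI2 relative SNAI1 was higher by 1.10. Among 8 other SOX factors, 2 were called as higher in A375, against 14.2% of all genes, and 2 as lower, against 13.4%. SOX11 entered through A375 alone, so its call as higher in A375 was built into its entry. It read 1074 and 463 in A375, against 11.9 and 12.3 in SK-MEL-28, and SOX2 was higher in A375 by 1.74. SOX6 (-2.93) and SOX13 (-1.93), the relatives of SOX5, were lower in A375, opposite to SOX5. Of 10 neurotrophin ligands, receptors and NGFR partners, 4 were called, all lower in A375, against 13.4% of all genes: BEX1 (-3.35), the Nogo receptor RTN4R (-1.46), MAGED1 (-0.86) and BEX3 (-0.64). The sortilin relative SORCS2, the receptor NTRK3 and the ligand BDNF were not called.

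**Figure D3:**
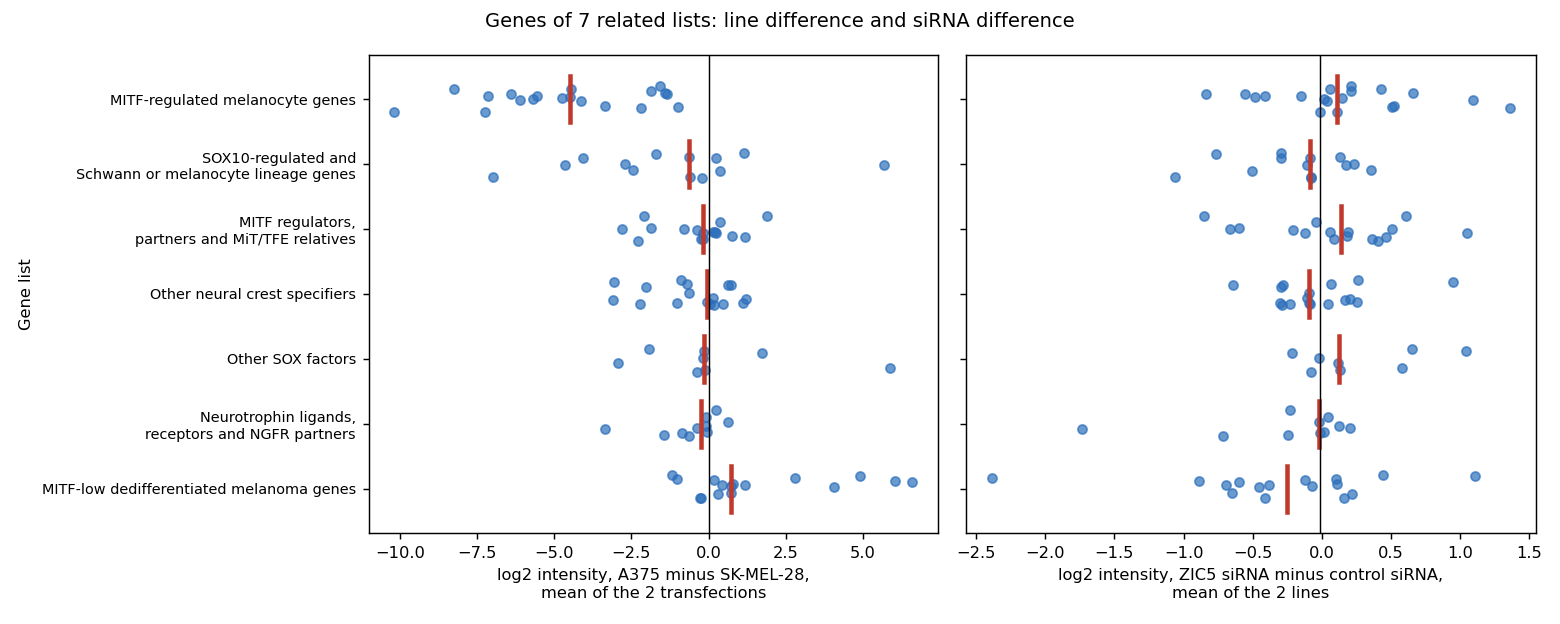
Each blue point is a gene of 1 of 7 related lists, with its line difference on the left (A375 minus SK-MEL-28) and its siRNA difference on the right (ZIC5 siRNA minus control siRNA), both in log2 intensity. Red bars are list medians, black lines the median of all genes analysed; the MITF-regulated genes lie at -4.48 for the line and at 0.11 for the siRNA.

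Between ZIC5 and control siRNA the median size of the members' differences was smaller than between the lines, though not for each member: FOXD3 differed by -0.47 for the siRNA and -0.41 for the line. The median size of the siRNA difference was 0.79 log2 units over the members in A375, against 0.31 over all genes, and 0.36 in SK-MEL-28, against 0.19. These medians rest on the brightest probe set of each gene. With probe sets averaged, the A375 differences were -0.26 for MITF, -0.04 for SOX5, 0.09 for PAX3, 0.15 for TFAP2A and -0.29 for FOXD3. SOX10 was then at 0.81, and NGFR and SNAI2, with 1 probe set each, stayed at -0.85 and 1.83. Median sizes were not taken on averaged probe sets. In A375, 1 of 10 members differed by at least 2-fold between ZIC5 and control siRNA, against 8.95% of all genes (3.89% higher, 5.05% lower), and in SK-MEL-28 0 of 10 did, against 2.89%. Fitted over both lines with limma, 0 members and 0% of all genes had an adjusted p under 0.05. At an unadjusted limma p under 0.05 there were 3 members, NGFR, SOX5 and PAX3, against 13.2% of all genes. Each group held 1 array, so the differences within a line below have no replicate check. On the brightest probe set the difference had the same sign in both lines for 7 of 10 members, against 64.0% of all genes.

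**Figure D4:**
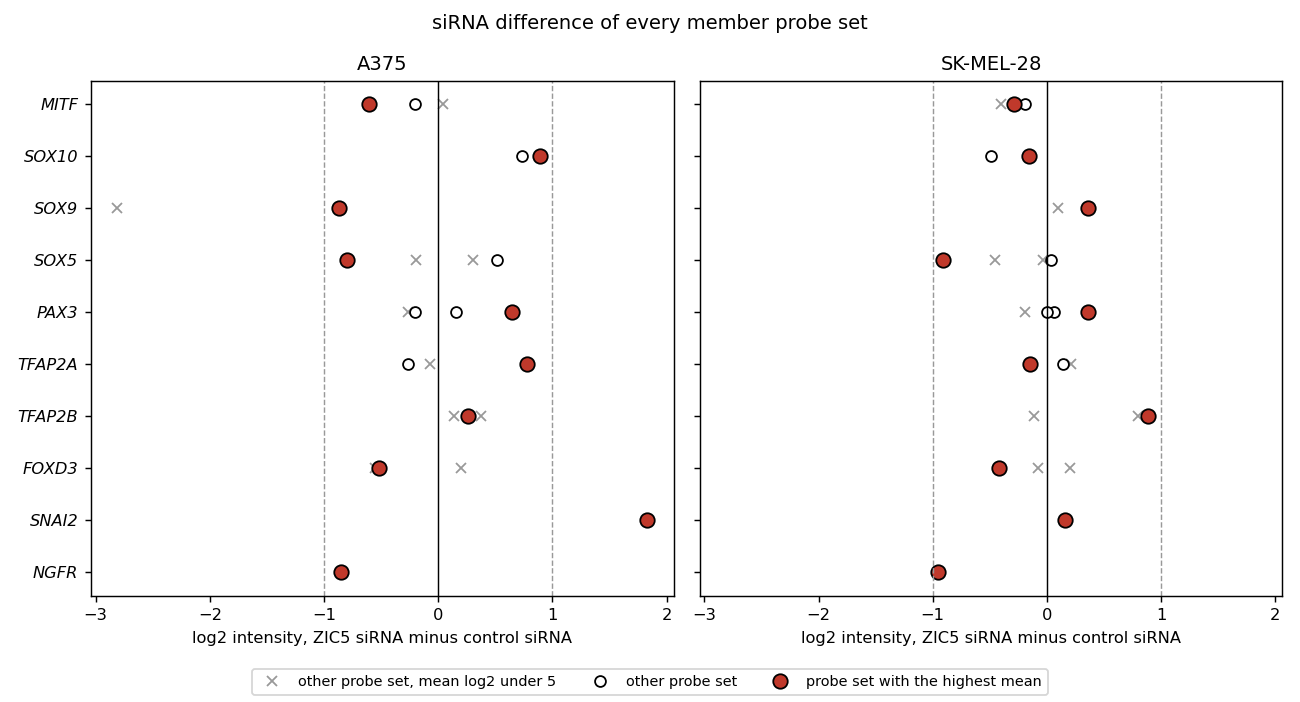
siRNA difference in log2 intensity (ZIC5 siRNA minus control siRNA) of every member probe set in A375 (left) and SK-MEL-28 (right). Red circles are the probe set with the highest mean, open circles other probe sets at the level minimum, crosses those under it, and dashed lines mark 2-fold; in A375 SNAI2 is past 2-fold at 1.83 and a SOX9 probe set under the level minimum at -2.81, and among probe sets at the minimum those of SOX5, PAX3 and TFAP2A lie on both sides of 0.

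NGFR was lower with ZIC5 siRNA in each line. The values given above make differences of -0.85 in A375 cells and -0.96 in SK-MEL-28, 1.81-fold and 1.94-fold lower. Its mean difference was -0.91 (SE 0.18), with a limma unadjusted p of 0.00749 and an adjusted p of 0.287. BEX1 and BEX3, small adaptors of which BEX3 binds the NGFR death domain, were lower too. BEX1 read 28.1 in A375 with ZIC5 siRNA and 87.9 with control siRNA, against 269 and 952 in SK-MEL-28, differences of -1.64 (-1.46 after the floor of 32) and -1.82. BEX3 differed by -0.76 in A375 cells and -0.67 in SK-MEL-28. The median siRNA difference of the neurotrophin list was -0.02 in A375 cells and -0.19 in SK-MEL-28.

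SOX5 depended on the probe set. The brightest gave -0.80 in A375 cells and -0.91 in SK-MEL-28, with a mean of -0.85 (SE 0.17, limma adjusted p 0.288). The other probe set at the level minimum gave 0.51 and 0.04, so no direction can be given for the gene.

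SNAI2 in A375 was the only member past 2-fold on its brightest probe set, 3.56-fold higher at 76.9 against 21.6. In SK-MEL-28, where it is abundant, it differed by 0.16. After the floor of 32 the A375 difference was 1.26. The mean over the lines was 0.99 (SE 0.46, limma adjusted p 0.431). Both A375 values remained below both SK-MEL-28 values.

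MITF was somewhat lower with ZIC5 siRNA on its main probe set, by -0.60 in A375 cells and -0.29 in SK-MEL-28 (mean -0.44, SE 0.16, limma adjusted p 0.383). The second probe set gave -0.21 and -0.19. Its target list did not share that sign in A375, where the median was 0.30, against -0.01 over all genes. In SK-MEL-28 the median of the list was -0.002, against 0.001 over all genes. In A375, 3 of the 19 targets passed 2-fold upwards (3.89% of all genes) and 2 downwards (5.05%). OCA2 was higher by 2.42, BCL2A1 by 1.70 and GPNMB by 1.05, while CDK2, a cell cycle kinase, was lower by -1.25. The other downward gene, GPR143, read 16.7 in A375 with ZIC5 siRNA and 33.4 with control siRNA, and after the floor of 32 its difference was -0.06. In SK-MEL-28, 0 of 19 were past 2-fold, with MC1R, the melanocortin receptor, at 0.83 and BCL2A1 at 0.48. GPNMB and GPR143 were chosen after their values were seen.

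PAX3 was higher with ZIC5 siRNA on its brightest probe set, by 0.65 in A375 cells and 0.36 in SK-MEL-28 (mean 0.50, SE 0.18, limma adjusted p 0.378). Its other probe sets that reached the level minimum gave -0.20 and 0.16 in A375 cells, and 0.06 and 0.00 in SK-MEL-28. FOXD3 was lower by -0.51 and -0.42 (mean -0.47, SE 0.17, limma adjusted p 0.383) on its 1 probe set at the level minimum. TFAP2B was higher by 0.26 in A375, and by 0.88 in SK-MEL-28 between values under 32, a difference that became 0 after the floor of 32.

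For 3 of the 10 members the sign on the brightest probe set differed between the lines. SOX10 was higher in A375 by 0.89 (1.86-fold), with 0.73 on its second probe set, and differed by -0.15 and -0.49 in SK-MEL-28. TFAP2A differed by 0.78 in A375 cells and -0.14 in SK-MEL-28, but its second probe set gave -0.27 and 0.14. With probe sets averaged, TFAP2A differed by 0.15 and 0.07, the same sign in both lines. SOX9 differed by -0.87 in A375 cells and 0.36 in SK-MEL-28. Its second probe set read 7.8 in A375 with ZIC5 siRNA and 54.9 with control siRNA, against 8.0 and 7.5 in SK-MEL-28. No interaction could be fitted with 1 array per group, so these differences between the lines were not tested.

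Several other factors of the network passed 2-fold between ZIC5 and control siRNA in at least 1 line. ERBB3 and LOXL2, also given here, stayed under 2-fold in each line. SOX4 was higher by 1.25 in A375 cells and 0.84 in SK-MEL-28, and ID2, a helix-loop-helix inhibitor, by 1.33 and 0.57. SOX11 was higher by 1.21 in A375 and differed by -0.05 in SK-MEL-28, where it was under 32. SOX6 was higher by 1.14 in A375 and lower by -0.91 in SK-MEL-28. ATF4, a stress factor known to repress MITF, read 6583 in A375 with ZIC5 siRNA and 3284 with control siRNA, against 5731 and 2667 in SK-MEL-28. LEF1 differed by -0.36 in A375 cells and 1.18 in SK-MEL-28, and ZEB2 by -0.31 and -1.02. POU3F2 differed by -1.32 in A375 cells and -0.38 in SK-MEL-28, and TCF7L2 by 1.13 and 0.10. Among genes linked to SOX10, the adhesion molecule L1CAM was lower by -1.79 in A375 cells and -0.33 in SK-MEL-28, and ERBB3 differed by -0.99 and -0.01. The median siRNA difference was -0.14 in A375 cells and -0.01 in SK-MEL-28 over that list. Over the genes linked to low MITF it was -0.13 and -0.39. Of these 16 genes, 7 were higher with ZIC5 siRNA in A375 and 4 in SK-MEL-28. For comparison, all-gene medians were -0.01 in A375 cells and 0.001 in SK-MEL-28. About as many genes were therefore higher as lower. The A375 count for this list was close to that balance, and neither count was tested. CCN1, a matricellular protein of that list, read 1228 in A375 with ZIC5 siRNA and 2859 with control siRNA, against 78.2 and 920 in SK-MEL-28. It was thus lower by -1.22 in A375 cells and by -3.56 in the other line. AXL differed by -1.24 in A375 cells and -0.54 in SK-MEL-28, the matrix enzyme LOXL2 by -0.68 and -0.71, and the zinc-finger factor ZIC2 by -1.01 and -0.28. WNT5A, of the list linked to low MITF, was higher by 0.72 in A375 and by 1.49 in SK-MEL-28, where the floor of 32 left 0.23. None of these genes passed the limma siRNA test.

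The genes whose profile over the 4 arrays was nearest to that of MITF, by root mean square distance of centred log2 values, were TNFRSF14 (0.097), VEPH1 (0.11), ZFY (0.11), CTSK (0.13) and CPM (0.15). ZFY read 6.3 and 7.9 in A375 with ZIC5 and control siRNA, and CPM 10.6 and 15.0. Both averaged under the level minimum there and entered through SK-MEL-28 alone, so a lower A375 value was built into their entry. CTSK, a protease gene, read 80.9 in A375 with ZIC5 siRNA and 139 with control siRNA, against 1682 and 1880 in SK-MEL-28. The nearest to SOX10 were TMEM133 (0.012), SH3YL1 (0.025), CCNT2 (0.043), FHIP2A (0.045) and LENG8 (0.052). SH3YL1 read 99.7 and 51.4 in A375, against 113 and 127 in SK-MEL-28. Distances over 4 arrays describe these arrays only.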

How the data were processed

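Biotinylated cRNA made from 100 ng of total RNA was hybridised to 4 Affymetrix arrays, 1 per group. Per the submitters' processing notes, the intensity of each probe set was summarised by RMA with Expression Console from Affymetrix; the version is not given in the sources used here, and no detection calls were used. The values deposited by the authors run from 2.8 to 22531, a linear intensity scale, so log2 was taken. The platform's annotation gave a single gene to 41091 of 54613 probe sets, more than 1 gene to 1801 and no gene to 11721, and 41037 matched RefSeq (GRCh38.p14) by entrez ID.

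Each gene was read on its brightest probe set (highest mean), with a minimum mean log2 of 5. Line and siRNA terms were fitted jointly (lmFit, eBayes with trend, limma 3.58.1, R 4.3.3), with 1 residual and 2.85 prior degrees of freedom per gene and Benjamini-Hochberg adjustment over 13794 genes. The fit was tested on simulated data. The labels name no separate cultures within a group. The 1 residual degree of freedom is how far a gene's siRNA difference departs between the 2 lines, moderated by a prior over all genes. A p-value therefore sets a difference against that departure, not against scatter between replicate arrays. The number of arrays, 4, limits precision. Within a line a size of 2-fold was used, without a test. The members and the 7 lists were chosen with earlier results of these data known. List genes under the level minimum, or without a probe set of their own, were not analysed. Analysed genes that are not named still count in the list totals and medians. Named genes were the members, up to 4 per list by line difference and up to 4 by mean siRNA difference, and the 5 nearest profiles to MITF and to SOX10. TYR was named with its promoter, and further genes outside the rule (TNC, GPNMB, GPR143, DLX5, CREB1, NTRK3 and BDNF) were chosen after their values were seen. Alternatives covered the level filter, a floor of 32, the choice of probe sets, normalization, the variance trend and the line block.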

Additional observations from a re-analysis of the deposited data

How the results depend on the processing

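The line difference of MITF, SOX5, PAX3, TFAP2A, TFAP2B, SNAI2 and NGFR kept its direction and an adjusted p under 0.05 under every alternative that tested the gene, and no member's fitted difference changed sign. TFAP2B did not reach a level minimum of 7 or, averaged over its probe sets, of 5, which left 6 members called there. Averaging probe sets took the SOX5 siRNA difference to -0.04 in A375 cells and -0.34 in SK-MEL-28, and its line difference under control siRNA to 1.004. It also took the fitted PAX3 line difference to -1.17, the MITF line difference under control siRNA to -3.30, the A375 siRNA differences of MITF, PAX3 and TFAP2A to -0.26, 0.09 and 0.15, and the FOXD3 siRNA difference in SK-MEL-28 to -0.10. Over all genes, a level minimum of 7 left 803 genes past 2-fold for the siRNA in A375 (1234 as reported) and 2000 between the lines under control siRNA (3061), with fewer genes analysed. Averaging probe sets left 782 genes in A375 cells and 205 in SK-MEL-28 (399). A fit on every probe set called 6424 probe sets for the line, where 3816 genes were called. The siRNA fit called 0 genes under all alternatives, including the fit without the line as a block, where 268 genes had an unadjusted limma p under 0.05 against 1824. No paired analysis was possible because the labels carry no replicate numbers, beyond the line as a block, and leaving out an array would leave no residual degree of freedom. Members under 32 (SOX9, TFAP2B and SNAI2 in 1 line) are limited by low signal.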
